A study of Mus musculus with 8 samples.

Results

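The 10 genes described here are the tumour suppressor gene *Trp53*, which encodes p53, and 9 genes tied to p53 and the response to DNA damage, *Ccng1*, *Cdkn1a*, *Mdm2*, *Trp53inp1*, *Sesn1*, *Phlda3*, *Bax*, *Zmat3* and *Gadd45a*. They were taken by name from 38031 annotated genes in a table of read counts, and the list was chosen by the measured decrease of *Ccng1*, which was among the clearest after *Fezf2* knockdown, so that *Ccng1* is described below without a test. All 10 were found in the table. Male Swiss Webster mice received lentivirus in the primary motor cortex (M1) at P21 to P25, and M1 was taken 28 days later at P49 to P53. The virus carried mCherry with either a *Fezf2 shRNA* (4 libraries) or a *non-silencing shRNA* (4 control libraries), both under a rat *Synapsin I* promoter that is active in neurons. Each library came from total RNA of dissected M1 with all layers and meninges, so that transduced neurons were sequenced together with untransduced neurons, glia and vessels. A single *shRNA* was used against *Fezf2*, a zinc finger transcription factor of deep-layer projection neurons. In such bulk tissue, fewer cells of a type and less RNA per cell cannot be told apart.

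p53 is a transcription factor that is held at a low level by MDM2, a ubiquitin ligase that is itself a p53 target, and it accumulates when DNA is damaged or the cell is stressed. It binds DNA at an element made of a pair of half-sites and activates genes that stop the cell cycle, permit repair, limit oxidative damage or start apoptosis. In postmitotic neurons the pathway is known mainly for its part in injury and cell death, although several of its targets are transcribed at rest.

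The promoter sequences of the list are shown because the genes were grouped as p53 targets. RefSeq promoter windows (250 bases before to 50 after a transcription start, GRCm38.p6) were held for 8 of the 10 genes, 10 windows in all, and none for *Trp53inp1* and *Zmat3*. Each window was searched for the 10-letter p53 half-site and for the 20-letter element of adjoining half-sites. The half-site is palindromic, so that both strands were searched at once. A half-site without mismatch was held by 7 of the 10 windows, against 2745 of 32851 windows of all genes (8.36%). An element of 20 letters with at most 1 mismatch was held by 2 of the 10, those of *Ccng1* and the upstream promoter of *Cdkn1a*, against 29 of all windows (0.0883%). Since the genes are listed as p53 targets in general knowledge, these shares describe the list and are not a result of the knockdown. In the following stretches, read 5′ to 3′ on the strand of the gene, capitals mark the element or half-site.
*Ccng1*, 20-letter element, chr11:40755437-40755506, minus strand: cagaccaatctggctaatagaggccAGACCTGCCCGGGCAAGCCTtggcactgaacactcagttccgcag
*Cdkn1a*, 20-letter element, chr17:29090903-29090972, plus strand: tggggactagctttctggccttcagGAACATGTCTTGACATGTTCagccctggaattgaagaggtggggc
*Mdm2*, half-site, chr10:117710910-117710969, minus strand: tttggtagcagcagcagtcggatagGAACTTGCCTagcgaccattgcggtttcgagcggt
*Sesn1*, half-site at the shorter transcript, chr10:41887241-41887300, plus strand: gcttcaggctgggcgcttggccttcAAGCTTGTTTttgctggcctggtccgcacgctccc
*Bax*, half-site, chr7:45467065-45467124, minus strand: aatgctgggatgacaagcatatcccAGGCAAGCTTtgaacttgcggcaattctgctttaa
*Gadd45a*, half-site, chr6:67037413-67037472, minus strand: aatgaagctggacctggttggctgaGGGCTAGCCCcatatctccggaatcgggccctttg
*Trp53*, half-site, chr11:69580259-69580318, plus strand: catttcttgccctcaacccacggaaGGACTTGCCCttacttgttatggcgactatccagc
The element of *Ccng1* began 195 bases before the transcription start and that of *Cdkn1a* 51 bases before it. The *Phlda3* window, the downstream *Cdkn1a* window and the upstream *Sesn1* window held no half-site. Of 605 tested genes with a half-site in the promoter, 17 passed the test described below (2.81%), with a median log2 fold change of −0.02, against 154 of 7397 tested genes with any promoter window (2.08%) and a median of −0.03.

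The *Fezf2 shRNA* is shown because its own sequence can match other transcripts. The authors searched it against mouse transcripts and found a full match to *Fezf2* and a partial alignment to *Zfp523*. They considered cleavage of the latter unlikely. Capitals mark the 7 letters of the listed strand that lie opposite bases 2 to 8 of the other strand, if that strand begins where the listed one ends.
*Fezf2 shRNA*: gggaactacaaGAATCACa
These 19 letters were found once in the *Fezf2* transcript, at bases 1531 to 1549, in coding sequence across an exon junction (chr14:12342741-12343639, mm10). The 7 capital letters were found in 2867 of 37945 transcripts (7.56%) and in 0 of the 10 transcripts described here. The exact ends of the processed strand are not given in the sources used here.

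Between 54684016 and 58003814 reads per library were counted over the 38031 genes, with 1 transcript interval per gene, introns included. The targeted gene was lower in each *Fezf2 shRNA*-treated library. *Fezf2* had 723 ± 35.4 normalized counts in controls and 591 ± 22.1 after knockdown (SD, n = 4 each), and the treatments did not overlap. Its log2 fold change was −0.29 (SE 0.0781), which did not pass the test over all genes (adjusted p = 0.0824, edgeR quasi-likelihood test with Benjamini-Hochberg adjustment) but did under DESeq2 with its prior (adjusted p = 0.0256). Normalized counts here are reads scaled to a common library size. A gene was tested if it had more than 8 CPM (reads of the gene per 1000000 counted) in at least 4 libraries, and passed with an adjusted p of at most 0.05 and a log2 fold change of at least 0.2 in size. Of 9959 genes tested, 208 passed (2.09%), 195 higher and 13 lower in *Fezf2 shRNA*-treated M1. The split depended on the fit: with an offset for gene length 0 were higher and 2 lower, and DESeq2 with its prior called 645 higher and 89 lower. Short genes had lower fold changes than long ones, with a median log2 fold change of −0.12 for intervals under 10 kb, −0.07 for 10 to 30 kb and 0.01 for 30 to 100 kb. The genes below other than *Ccng1* are therefore also set against genes of their own span. For *Fezf2*, with an interval of 3858 bp, the offset for gene length gave a log2 fold change of −0.18 (SE 0.0801, adjusted p = 0.466, edgeR).

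*Ccng1* was the 1 gene of the 10 past the threshold, the gene for which the list was chosen, against 2.09% of all genes tested, and nothing is read from that count. The other 5 genes over 8 CPM (*Mdm2*, *Trp53inp1*, *Sesn1*, *Bax* and *Zmat3*) did not pass. *Cdkn1a*, *Phlda3*, *Gadd45a* and *Trp53* were under that filter and were tested with genes over 1 CPM, where 84 of 16481 genes passed (0.510%) and none of these 4 did by edgeR, although *Phlda3* had an unadjusted p under 0.05 and was called by DESeq2. Fold changes were below 0 for 7 of the 10 genes, *Ccng1* among them, and above 0 for *Cdkn1a*, *Zmat3* and *Trp53*, against 9172 of 16481 genes below 0. All of the list but *Zmat3* have intervals under 30 kb. Of genes over 1 CPM, 72.7% with intervals under 10 kb and 67.1% with 10 to 30 kb were below 0, so nothing is read from the count. The range was from −0.44 for *Phlda3* to 0.38 for *Cdkn1a* on the log2 scale. Libraries of the 2 treatments did not overlap for *Ccng1*, for which the list was chosen, so that its separation is not counted. Among the others they were separate only for *Phlda3*, which was lower as well. Of all genes over 1 CPM, 3.82% had each *Fezf2 shRNA*-treated library below each control and 6.37% had each above.

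**Figure D1:**
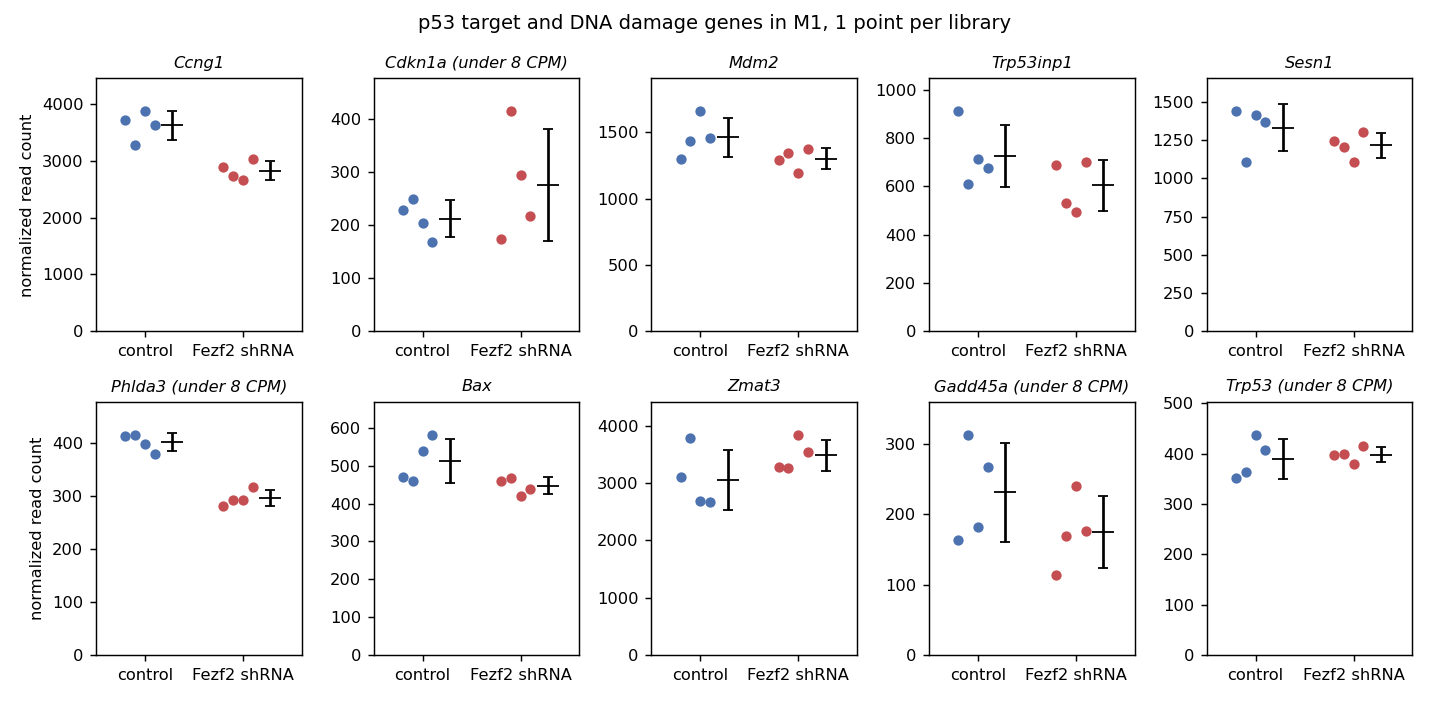
Normalized read counts of the 10 genes (y axes, each from 0) in the 4 control and 4 *Fezf2 shRNA*-treated libraries, 1 point per library, with black bars for the mean ± SD. For *Ccng1* and *Phlda3* the treatments do not overlap, and for the other 8 genes they do.

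*Ccng1* encodes cyclin G1, which recruits a phosphatase that acts on MDM2. Its interval (ENSMUST00000020576, chr11:40748552-40755311, minus strand, 6 exons) gave normalized counts of 3721, 3275, 3869 and 3634 in the control libraries and 2883, 2729, 2669 and 3032 in the *Fezf2 shRNA*-treated libraries. The highest treated library was below the lowest control. The mean was 3625 ± 252 in controls and 2828 ± 163 after knockdown (SD, n = 4 each), 78.0% of control, with a log2 fold change of −0.36 (SE 0.0691). The offset for gene length, which removes the trend with span, brought it to −0.25 (SE 0.0707). Reads inside the interval of a shorter transcript were 2322 ± 158 against 3026 ± 195 without overlap, a log2 ratio of −0.38. Its outer ends, with fewer reads, had 506 ± 32.3 against 599 ± 62.3 and overlapped (−0.24).

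*Mdm2* and *Trp53* form the core of the feedback loop. The *Mdm2* interval (ENSMUST00000020408, chr10:117688875-117710758, minus strand, 12 exons) had 1301, 1438, 1658 and 1461 normalized counts in controls and 1288, 1348, 1196 and 1375 after *Fezf2 shRNA*. The treatments overlapped through control replicate 1, and the other 3 controls were above each treated library. Its log2 fold change of −0.17 (SE 0.0823) did not pass the test (adjusted p = 0.277, edgeR; exact permutation p = 0.0857, two-sided). *Trp53* (ENSMUST00000005371, chr11:69580359-69591873, plus strand, 11 exons) had 351, 364, 437 and 407 in controls and 398, 399, 379 and 416 after *Fezf2 shRNA*. The treated values lay inside the range of the controls. The transcript of p53 itself thus differed by less than the spread between libraries, with a log2 fold change of 0.03 (SE 0.0992, adjusted p = 0.900, edgeR). p53 is regulated mainly as a protein, which was not measured here.

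*Trp53inp1* and *Zmat3* act beside this loop, the first as a stress protein that promotes p53 phosphorylation and autophagy and the second as an RNA-binding zinc finger protein. *Trp53inp1* (ENSMUST00000029865, chr4:11156431-11174379, plus strand, 4 exons) had 910, 608, 711 and 674 normalized counts in controls and 690, 530, 493 and 700 after *Fezf2 shRNA*. Control replicate 1 was the highest library, and the treatments overlapped. The log2 fold change was −0.27 (SE 0.152, adjusted p = 0.338, edgeR) and −0.14 without that library. *Zmat3* (ENSMUST00000029199, chr3:32334792-32365678, minus strand, 6 exons) had 3102, 3794, 2686 and 2679 in controls and 3279.8, 3270.2, 3842 and 3552 in treated M1. A single control, replicate 2, lay among the treated values, and the other 3 controls were below them. Its log2 fold change was 0.19 (SE 0.110, adjusted p = 0.358, edgeR) and 0.30 without that library.

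*Cdkn1a* and *Gadd45a*, the classical arrest genes of the list, had few reads and varied more between libraries than most of the list. *Cdkn1a* encodes the cyclin-dependent kinase inhibitor p21. Its interval (ENSMUST00000023829, chr17:29093769-29100722, plus strand, 3 exons) had 228, 249, 205 and 168 normalized counts in controls. The *Fezf2 shRNA*-treated libraries had 175, 415, 295 and 218. Replicates 2 and 3 were above each control and replicates 1 and 4 among them. The log2 fold change was 0.38 (SE 0.248, adjusted p = 0.468, edgeR; exact permutation p = 0.371) and 0.11 without *Fezf2 shRNA* replicate 2. The interval shares 693 bp with a gene model on the opposite strand, and reads were counted without regard to strand. *Gadd45a*, whose product binds PCNA and p21 and takes part in growth arrest and repair, had 164, 313, 182 and 267 in controls and 114, 169, 240 and 176 after *Fezf2 shRNA* (ENSMUST00000043098, chr6:67035096-67037406, minus strand, 4 exons). High and low libraries occurred in both treatments. Its log2 fold change of −0.41 was about as large as that of *Ccng1*, with an SE of 0.258 (adjusted p = 0.455, edgeR). It ranged from −0.60 without *Fezf2 shRNA* replicate 3 to −0.22 without control replicate 2. Over 808 bp, *Gadd45a* also overlaps *E230016M11Rik* on the opposite strand, an interval with 705 normalized counts in treated M1 and 608 in controls.

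*Phlda3* and *Bax* belong to the cell death branch. *Phlda3* encodes a small pleckstrin homology protein that inhibits the kinase AKT. Its interval (ENSMUST00000038945, chr1:135766119-135769136, plus strand, 2 exons) had 412, 414, 398 and 378 normalized counts in controls and 281, 291, 291 and 317 in treated M1. The treatments were separated by a wide gap, from 317 to 378, and the controls varied by 4.10% (coefficient of variation), the least of the 10 genes. The means were 295 ± 15.4 after knockdown and 401 ± 16.4 in controls (SD, n = 4 each), 73.7% of control, with a log2 fold change of −0.44 (SE 0.0952). It did not pass the edgeR test over genes above 1 CPM (adjusted p = 0.0689). The exact permutation test over the 8 libraries gave p = 0.0286, the smallest that 4 against 4 allow. DESeq2 with its prior called *Phlda3* (adjusted p = 0.00586) among 709 of 16481 genes (4.30%), and without its prior it called *Phlda3* among 724 (4.39%). Both parts of the gene were lower without overlap, with log2 ratios of −0.43 inside the interval of its shorter transcript and −0.45 outside it. Of genes over 1 CPM with intervals under 10 kb, 3.47% had a lower fold change, and the offset for gene length gave −0.33 (SE 0.0988, adjusted p = 0.311, edgeR).

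*Bax*, the pore-forming protein of the outer mitochondrial membrane (ENSMUST00000033093, chr7:45461697-45466898, minus strand, 6 exons), had 470, 459, 539 and 581 normalized counts in controls. The *Fezf2 shRNA*-treated libraries had 461, 468, 419 and 439. Control replicates 3 and 4 stood above the treated values, and the other 2 controls lay among them or within 2 counts of the highest. *Bax* was near the 8 CPM filter, which it passed in 4 control and 2 treated libraries. The log2 fold change was −0.20 (SE 0.101, adjusted p = 0.297, edgeR) and −0.09 with the offset for gene length. The interval shares 915 bp with *Gm45808* on the same strand.

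*Sesn1* encodes sestrin 1, a stress protein that limits oxidative damage and restrains the growth kinase mTORC1. The interval of its shorter transcript (ENSMUST00000041438, chr10:41887439-41908424, plus strand, 10 exons) had 1439, 1108, 1413 and 1372 normalized counts in controls and 1248, 1205, 1109 and 1302 after *Fezf2 shRNA*. Apart from control replicate 2, the controls were above the treated libraries. The log2 fold change was −0.13 (SE 0.0915, adjusted p = 0.432, edgeR). A longer transcript starts upstream, and its interval gave a log2 fold change of 0.09, the opposite sign.

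The 2 parts of *Sesn1* were therefore set side by side, a choice made after their values were seen. Reads in the 77504 bp upstream of the shorter transcript, of which 1.76% are exonic, came to 818, 786, 897 and 836 normalized counts in controls and 1112, 990, 1109.7 and 1138 after *Fezf2 shRNA*. Each treated library was above each control (1087 ± 66.3 against 834 ± 46.8, log2 ratio 0.38, exact permutation p = 0.0286, the smallest possible). The ratio of upstream reads to reads of the shorter interval had a mean of 0.631 ± 0.0591 in controls against 0.897 ± 0.0754 after knockdown (SD, n = 4 each), again without overlap (exact permutation p = 0.0286). Such a difference was common: of 311 largely intronic parts outside the counted interval of a gene (at most 5% exonic, at least 100 reads on average), 83 were higher in each treated library (26.7%) and 2 were lower in each. Their median log2 ratio was 0.23, and 76.8% had a lower ratio than *Sesn1*.

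**Figure D2:**
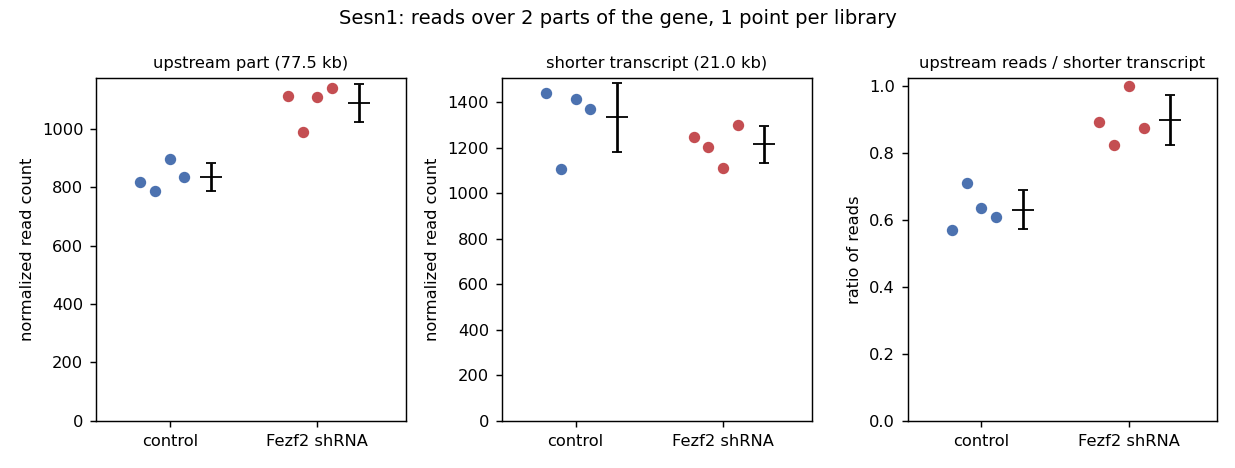
Normalized read counts over the upstream part and the shorter transcript of *Sesn1*, and the ratio of the 2 (y axes, from 0), with 1 point per library and black bars for mean ± SD. Upstream reads are higher in the 4 treated libraries, reads of the shorter transcript overlap, and the ratio is 0.822 or more in treated M1 and 0.709 or less in controls.

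Levels were compared between genes as CPM per kb of counted interval, which includes introns and so sits below a level per kb of exon. The exonic share of the interval was 12.4% for *Sesn1*, 14.2% for *Mdm2* and 16.7% for *Bax*, but 47.5% for *Phlda3* and 52.9% for *Gadd45a*. The order below is therefore one of intervals, and levels per kb of exon could order these genes differently. In controls *Ccng1* was by far the highest of the list at 9.62 ± 0.812 CPM per kb (SD, n = 4), above 92.2% of the 9959 genes over 8 CPM. *Phlda3* followed at 2.38 ± 0.0198 and then *Gadd45a* at 1.80 ± 0.553, *Zmat3* at 1.77 ± 0.262 and *Bax* at 1.77 ± 0.259. *Mdm2* (1.20 ± 0.136) and *Sesn1* (1.14 ± 0.146) lay in the middle. The lowest were *Trp53inp1* (0.724 ± 0.122), *Trp53* (0.608 ± 0.0746) and *Cdkn1a* (0.546 ± 0.0725). The control values of neighbours in this order overlapped, except between *Ccng1* and *Phlda3*, between *Bax* and *Mdm2* and between *Sesn1* and *Trp53inp1*. After *Fezf2 shRNA*, *Ccng1* remained above each other gene of the list, with a lowest library of 7.06.

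The offset for gene length moved each of the 10 fold changes upwards, least for *Zmat3* (from 0.19 to 0.21), the longest. With it, 7 of the 10, *Ccng1* among them, were below 0, where 8788 of the 16481 genes over 1 CPM were. Of the 10, 0 passed (edgeR), where 0.0182% of the genes over 1 CPM did. Set against genes of the same span class, the share with a lower fold change was 3.22% for *Trp53inp1*, 4.74% for *Gadd45a*, 15.2% for *Mdm2*, 20.6% for *Bax* and 26.7% for *Sesn1*. On the upper side were *Trp53* with 73.9%, *Zmat3* with 88.9% and *Cdkn1a* with 95.7%. These shares are among genes over 1 CPM for *Cdkn1a*, *Phlda3*, *Gadd45a* and *Trp53*, and among genes over 8 CPM for the others. *Trp53inp1* and *Gadd45a*, like *Phlda3*, lay near the lower end of their span classes and *Cdkn1a* near the upper end of its own. The places of *Gadd45a* and *Cdkn1a* rest on fold changes with wide SEs (0.258 and 0.248).

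**Figure D3:**
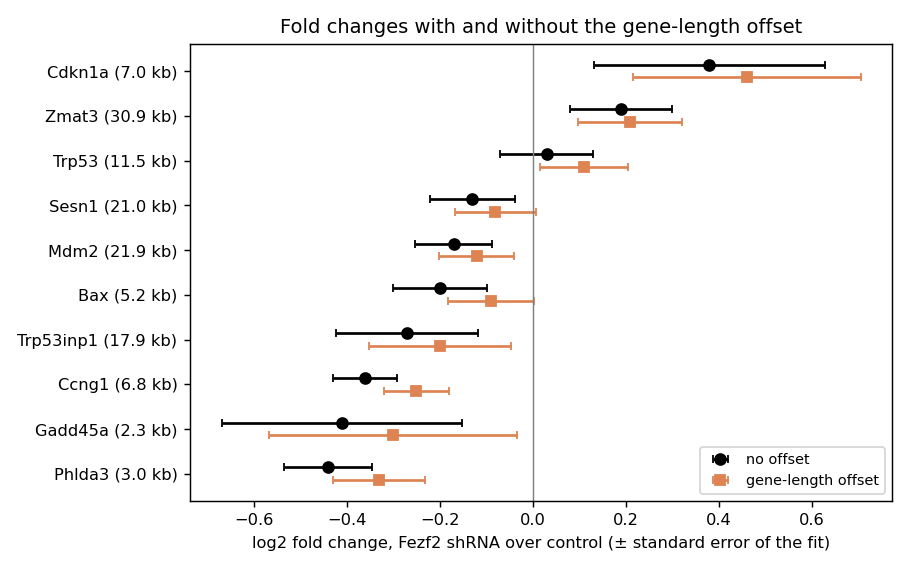
Log2 fold changes (x axis, *Fezf2 shRNA* over control) of the 10 genes with their standard errors, without (black circles) and with (orange squares) an offset for gene length, with the counted interval in kb beside each name. The estimates run from −0.44 to 0.38 without the offset and from −0.33 to 0.46 with it.

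**Figure D4:**
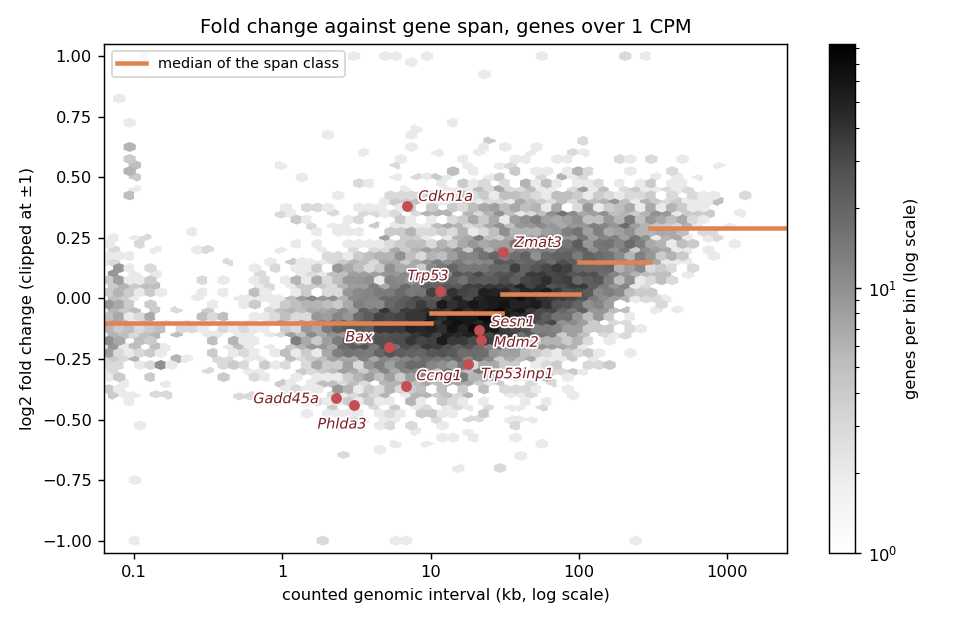
Log2 fold changes of the 16481 genes over 1 CPM (y axis, clipped at ±1) against the length of the counted interval (x axis, log scale), with grey for the number of genes, orange lines for the median of each span class and red points for the 10 genes. Medians rise from −0.10 under 10 kb to 0.29 over 300 kb, and *Cdkn1a* lies above its class while *Phlda3* and *Gadd45a* lie below theirs.

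Markers of other cell types were measured in the same libraries, and 0 of 42 tested markers passed the edgeR test, with 2 higher and 11 lower at an unadjusted p under 0.05 and 1 higher and 5 lower called by DESeq2. Over all 9959 genes tested, 1177 higher and 770 lower had such a p (19.6%, edgeR). DESeq2 with its prior called 645 higher and 89 lower (7.37%). The median log2 fold change of the 9 tested oligodendrocyte markers was −0.52, with 9 of 9 below 0, 6 of them at an unadjusted p under 0.05, and their summed level overlapped, at 852 to 1418 CPM in treated libraries and 1145 to 2227 in controls. For oligodendrocyte precursors it was −0.31, with 5 of 5 below 0, 3 of them at an unadjusted p under 0.05, and the summed levels of 116 to 145 CPM against 147 to 213 did not overlap. How often sums over other genes separate in this way was not tested. Medians were −0.07 for neurons (10 tested), −0.09 for astrocytes (8 tested) and 0.14 for microglia (8 tested). For endothelial cells the median was −0.18, but only 2 of 7 markers were tested, 1 above and 1 below 0. No marker of the 6 lists was at 0 in any library. The part of the oligodendrocyte lineage in the lower values of *Ccng1* and *Phlda3* was not tested.

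Beyond the 10 genes, 134 further genes were listed from general knowledge, and 69 of them were over 8 CPM. They were genes of p53 control, p53 targets, DNA damage signaling and repair, and a list of Gadd45 and stress paralogs that holds *Sesn3*. By edgeR 0 of the 69 passed, while 10 had an unadjusted p under 0.05, 9 higher and 1 lower, where 1947 of all 9959 genes did (19.6%), 1177 higher and 770 lower. Each treated library was above each control for 5 of the 69 and below for 1, against 738 and 439 of all 9959 genes. DESeq2 called 5, all higher, with 7.37% of all genes called with its prior and 7.55% without. The median log2 fold change of the 69 was −0.03, as over all 9959 genes (−0.03), and 42 were below 0. p53 control and targets (33 genes) had a median of −0.02 and DNA damage signaling and repair (31 genes) of −0.04. Among genes over 1 CPM, 0 of 114 passed, with 19 at an unadjusted p under 0.05, 9 higher and 10 lower, where 15.9% of all 16481 genes had one, 1607 higher and 1010 lower. DESeq2 called 4 of the 114, all higher, where it called 4.30% of all genes with its prior and 4.39% without.

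**Figure D5:**
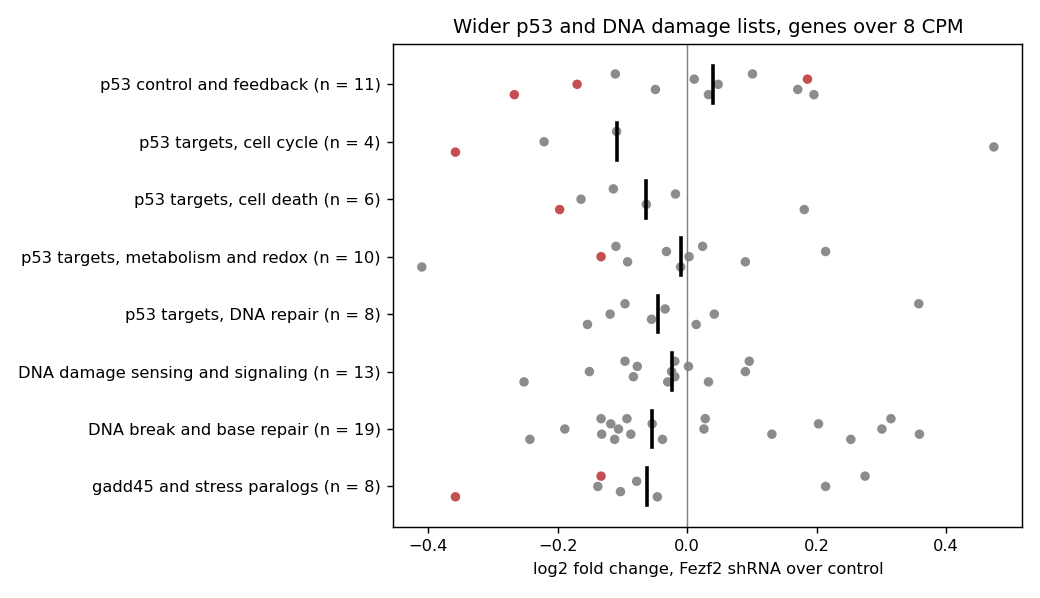
Log2 fold changes (x axis, *Fezf2 shRNA* over control) of the genes over 8 CPM in each list (rows, with the number of genes), in red for the 10 genes of the main list and grey for the others, with black lines for the median of the grey points. Genes in 2 lists appear in both, and in most rows the grey points lie on both sides of 0.

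The 5 genes that DESeq2 called were DNA repair genes and a sestrin, with long intervals (39.1 to 241 kb). *Ercc4*, which encodes the XPF nuclease of nucleotide excision repair, had 1066, 1044, 1070.1 and 946 normalized counts in controls and 1281, 1171, 1307 and 1327 after *Fezf2 shRNA*. The treatments did not overlap (log2 fold change 0.30, SE 0.0705, adjusted p = 0.0554, edgeR). *Sesn3*, a paralog of *Sesn1* that is controlled by FOXO factors, had 1918, 2227, 2027 and 1988 in controls and 2355, 2461, 2564 and 2489 in treated M1, likewise without overlap (0.27, SE 0.0649, adjusted p = 0.0575, edgeR). Its sign was the opposite of that of the shorter *Sesn1* interval, and the difference between them was not tested. *Fancc*, of the Fanconi anaemia pathway, had 765 ± 36.9 after knockdown against 596 ± 58.1, without overlap (0.36, adjusted p = 0.0722, edgeR). With the offset for gene length the fold change of *Ercc4* was 0.30 and that of *Sesn3* 0.25, while *Fancc* went to 0.23 and *Xrcc4* from 0.32 to 0.11. None of these passed with the offset, where their adjusted p ran from 0.182 for *Ercc4* to 0.637 for *Xrcc4* (edgeR).

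*Xrcc4*, a scaffold of the end-joining ligase, was at 1517 ± 128 against 1219 ± 118 without overlap, and *Tdp1*, which removes trapped topoisomerase from DNA, at 827 ± 133 against 645 ± 31.0 with overlap. *Ercc6*, a factor of transcription-coupled repair, had 2651 ± 190 against 2303 ± 68.4 (log2 fold change 0.20, adjusted p = 0.129, edgeR). On the lower side, *Parp1*, the enzyme that marks DNA breaks with poly(ADP-ribose), had 2866, 2877, 2778 and 2749.6 in controls and 2567, 2609, 2605 and 2647 in treated M1. These did not overlap, but the difference was small (−0.11, SE 0.0518, adjusted p = 0.263, edgeR). *Lig3*, a ligase of base excision repair (−0.24), the phospholipid transfer protein gene *Pltp* (−0.41), the phosphatase gene *Ptp4a3* (−0.22), the damage mediator *Mdc1* (−0.25) and the survival gene *Bcl2l1* (−0.11) overlapped between treatments. Their adjusted p ran from 0.215 for *Lig3* to 0.293 for *Bcl2l1* (edgeR).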

How the data were processed

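Total RNA libraries of M1 (TruSeq, paired-end) were compared, 4 per treatment, grouped by the deposited labels, with 4 animals per treatment in the design text. The authors mapped reads to mm10 (tophat2) and deposited raw counts per Ensembl transcript (BEDTools multiCov), which cover whole intervals including introns, without strand. A deposited table with the authors' own fold changes and p-values was not used. Of 94647 transcripts, 91320 were in GENCODE M21 (GRCm38), and the other 3327 held 1.82% of counts. The transcript with the lowest Ensembl number stood for each gene.

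Tests used edgeR 4.0.16 (TMM, quasi-likelihood, Benjamini-Hochberg over all genes tested) in R 4.3.3, with no covariate. Genes under 8 CPM were tested with the filter of 1 CPM. SEs are those of the fit. Permutation tests were exact, two-sided, over log2 normalized counts of 8 libraries. Alternatives were other normalizations, filters and transcripts, DESeq2 1.42.0, a replicate block, a loess offset (span 0.3) for gene length, and each library left out. The filter of 1 CPM with the other choices, the *Sesn1* parts and the largely intronic parts were added after the data were seen. On simulated data with 200 changed of 9959 genes, the edgeR step called 84.4% at a log2 change of 0.6 and 99.1% at 1, with 3.14% false among calls. Those data held no trend with gene span and no smaller change, so that these shares do not carry over to the 10 genes. With a simulated trend with span and no other change, 112 genes had an adjusted p of at most 0.05 (edgeR) without the length offset and 0 with it. The 10 genes and the lists were chosen with earlier results of these data known. Named from the wider lists were the genes past the threshold, or else the 6 with the smallest edgeR p in each direction, and any gene overlapping one of the 10. The p-values measure the spread between these 8 samples.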

Additional observations from a re-analysis of the deposited data

Results flagged for a closer look

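Among 46 groups of 4 libraries (23 genes in each treatment), 2 held a library that stood apart by Dixon's test, where chance flags about 1 in 20 groups. *Ercc6* was highest in control replicate 4, with 2405 normalized counts against 2277 in the nearest control. *Pltp* was lowest in *Fezf2 shRNA* replicate 3, with 431 normalized counts against 669 in the nearest treated library, and its log2 fold change was −0.27 without that library. Neither belongs to the 10 genes, and none of these 10 had such a library.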

How the results depend on the processing

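The number of all genes past the threshold was 208, and it was 136 with library totals, 752 and 734 with DESeq2 without and with its prior, 2 with the offset for gene length, 84 with the filter of 1 CPM and 103 with no filter. Leaving out 1 library gave 0 (without control replicate 1) to 368 (without control replicate 2). Whether replicate numbers pair the samples was not settled. The correlations of same-numbered libraries ran from −0.13 to 0.30 and those of differently numbered libraries from −0.22 to 0.27, too few values to decide. With replicate numbers as a block 90 genes passed, or 2 with block and length offset. Of the 10 genes, the count of 1 (*Ccng1*) became 0 with the replicate block, with the length offset, with both and with no filter. It was 0 to 1 without 1 library. With the filter of 1 CPM in these and the other choices, which were added after the data were seen, it was 2 under both forms of DESeq2 (*Ccng1* and *Phlda3*). At that filter it was 0 with DESeq2 size factors, library totals, the block, the length offset, both, or the widest transcript. There it was also 0 with any 1 library left out other than control replicate 2, without which it stayed 1. The count of 0 in the wider lists became 5 under both forms of DESeq2 and 0 to 1 without 1 library (1 when either replicate 2 was left out). *Phlda3* was below 0 under its 17 alternatives (−0.47 to −0.33). The 18 alternatives for *Ccng1* ran from −0.40 to −0.25, but the list was chosen by its decrease in these same libraries, so nothing is read from its sign. The sign turned for *Sesn1* with the widest transcript (0.09) and for *Trp53* without control replicate 1 (−0.02). The causes were not tested. A gene at 8 CPM had 437 to 464 reads per library, so that *Cdkn1a*, *Phlda3*, *Gadd45a* and *Trp53* rest on fewer.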
